A study of Mus musculus with 3 samples.

Results

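Cells carrying transcripts of Sox2, Otx2 and at least 1 of Six3 and Hesx1, the combination that marks the anterior neural plate from which the forebrain forms, were examined in whole mouse embryos at the onset of somite formation. Each of 3 libraries of single-cell RNA came from 1 wild-type embryo of C57BL/6 x 129 SvEv background at embryonic day 8 with 0 to 1 somites by the protocol and 0 to 2 by the stage label. The extraembryonic tissue had been cut away and the remaining embryo was dissociated whole, and the libraries were made to find the node, so the anterior neural plate was not selected for. No mutant, treatment or second stage was measured. Each embryo is 1 animal, and the differences tested below are between classes of cells of the same 3 embryos.

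The cells were chosen by a gate on unique molecular identifiers (UMIs, 1 per captured transcript molecule). Of 23533 deposited barcodes, 22168 passed the quality limits on genes detected and mitochondrial UMIs, and 940 of these held at least 1 UMI of Sox2, at least 1 of Otx2, at least 1 of Six3 or Hesx1, and 0 of Foxa2, T, Trh, Meox1 and Tcf15, which mark endoderm and axial and paraxial mesoderm. Embryo 1 gave 330 such cells of 6129, embryo 2 gave 276 of 8116 and embryo 3 gave 334 of 7923. These 940 cells are called anterior neural plate cells here, a name that rests on the gate. The 22168 cells had a median of 26705 UMIs in embryo 1, 14461 in embryo 2 and 16242 in embryo 3. The libraries shared few barcode sequences, 22 between embryos 1 and 2, 18 between embryos 1 and 3 and 19 between embryos 2 and 3, and 5 of the 940 cells carried one of them.

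The anterior neural plate is the front of the neuroectoderm, and it gives rise to the telencephalon, the diencephalon, the eyes and the hypothalamus. The homeodomain factors Otx2, Six3 and Hesx1 act in its formation, Sox2 is shared by neural progenitors along the whole axis, and loss of Six3 lets WNT signals convert the forebrain to a more caudal fate. Head development accordingly depends on WNT antagonists, whereas retinoic acid, FGF and WNT act in the caudal neural plate, where Cdx and Hox genes are active. Surface ectoderm and the placodes arise at the border of the plate, and the anterior placodal region shares Six3 and Otx2 with it.

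The promoters of 3 of the genes that define the cells, and of Lmo1, a gene higher in them, are shown because the cells were chosen for homeodomain factors. Those of Sox2 and of the other higher genes are not shown, and Lmo1 does not stand for them. Each run covers 250 bases before to 50 after a transcription start in RefSeq (GRCm38.p6), read 5′ to 3′ on the gene's strand. A pair of letter strings was searched on both strands, TAATTA, a core that many homeodomain proteins bind and its own reverse complement, and TAATCC, a string bound by Otx proteins, which reads GGATTA on the other strand. Matches are in capitals. The runs are Six3 at chr17:85620584-85620883 on the plus strand, Hesx1 at chr14:27000112-27000411 on the plus strand, 1 of 4 listed promoters of Otx2 at chr14:48665060-48665359 on the minus strand, and 1 of 2 of Lmo1 at chr7:109175158-109175457 on the minus strand.
Six3: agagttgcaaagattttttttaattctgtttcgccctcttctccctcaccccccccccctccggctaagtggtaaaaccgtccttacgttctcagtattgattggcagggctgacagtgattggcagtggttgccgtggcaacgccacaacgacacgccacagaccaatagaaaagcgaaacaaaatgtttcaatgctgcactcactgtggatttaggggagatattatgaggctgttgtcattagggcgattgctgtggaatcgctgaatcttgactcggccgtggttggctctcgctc
Hesx1: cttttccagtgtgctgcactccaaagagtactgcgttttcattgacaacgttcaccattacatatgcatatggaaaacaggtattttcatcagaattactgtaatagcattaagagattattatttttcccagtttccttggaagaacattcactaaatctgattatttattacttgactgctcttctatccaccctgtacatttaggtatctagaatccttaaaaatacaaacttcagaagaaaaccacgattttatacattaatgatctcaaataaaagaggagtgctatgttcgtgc
Otx2: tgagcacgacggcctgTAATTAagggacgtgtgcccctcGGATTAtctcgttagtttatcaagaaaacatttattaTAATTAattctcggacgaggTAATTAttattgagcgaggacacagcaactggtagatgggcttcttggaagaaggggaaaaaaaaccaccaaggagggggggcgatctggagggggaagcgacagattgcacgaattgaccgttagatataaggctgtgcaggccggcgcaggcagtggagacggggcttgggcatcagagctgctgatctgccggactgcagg
Lmo1: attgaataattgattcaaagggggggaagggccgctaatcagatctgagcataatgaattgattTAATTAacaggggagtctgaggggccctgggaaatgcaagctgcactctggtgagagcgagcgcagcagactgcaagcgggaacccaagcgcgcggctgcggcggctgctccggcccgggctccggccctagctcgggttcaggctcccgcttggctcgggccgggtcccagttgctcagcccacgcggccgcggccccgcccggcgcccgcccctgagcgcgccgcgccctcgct

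The Otx2 run holds 3 TAATTA matches and 1 TAATCC match and the Lmo1 run holds 1 TAATTA match, while the letters of neither string occur in the Six3 and Hesx1 runs. Of 32851 promoters of this length, 5.29% hold TAATTA and 7.06% hold TAATCC. Among the 13 genes most strongly higher in the cells in at least 1 of the first 3 comparisons below, 11 had a listed promoter, and 1 of these held TAATTA and 1 held TAATCC. The matches describe letters in a window and are not binding sites.

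The share of anterior neural plate cells was 5.38% in embryo 1 (exact 95% binomial interval 4.83 to 5.98%), 3.40% in embryo 2 (3.02 to 3.82%) and 4.22% in embryo 3 (3.78 to 4.68%), a mean of 4.33% ± 0.997 (SD, n = 3 embryos). The intervals cover counting error only. Embryo 1, which was sequenced most deeply, had the highest share and embryo 2, the shallowest, the lowest, and when every cell was thinned to 5000 UMIs the counts fell to 142, 116 and 138 cells and the shares to 2.33%, 1.45% and 1.75% (mean 1.85% ± 0.447), in the same order of embryos. Cells of the extraembryonic endoderm, taken as barcodes with at least 10 UMIs each of Ttr and Apoa1, gave a background for the 4 genes that had to be present. Of 2674 such cells 103, or 3.85%, carried Sox2, Otx2 and Six3 or Hesx1, against 10.9% of all cells. With the 5 exclusions 16 of them (0.598%) remained, a share that the gate lowers by construction, since 50.1% of them had a UMI of Foxa2.

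The requirement for 0 UMIs of the 5 mesoderm and endoderm genes removed more cells than it kept. Sox2, Otx2 and Six3 or Hesx1 were present in 2410 cells, 859 in embryo 1, 668 in embryo 2 and 883 in embryo 3, or 11.1% ± 2.89 of cells per embryo, and 39.0% of the 2410 had none of the 5 excluded genes. T was seen in 34.1%, Tcf15 in 24.8%, Meox1 in 24.5%, Trh in 22.6% and Foxa2 in 17.9% of the 2410. The 1470 cells left out had a median of 43209.5 UMIs, against 21588 in the 940, and 19.4% of them were among the top doublet scores, against 6.81% of the 940. Because the gate asks for absence, genes that run with T, Meox1 or Tcf15 were lowered by the choice itself, and the value without the 5 exclusions is given where it bears on a gene.

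Levels are given as CPM, the UMIs of a gene for every 1000000 UMIs of a class of cells, summed in 1 embryo. A lower CPM in summed cells cannot tell fewer expressing cells from less RNA per cell. Sox2, the factor of neural progenitors, stood at 197, 217 and 194 CPM in embryos 1, 2 and 3, against 54.7, 45.6 and 49.6 CPM in all other cells. Otx2, the factor needed for head formation, stood at 222, 170 and 187 CPM against 42.2, 22.4 and 33.1 CPM. Both were above the other cells in every embryo by construction, and Otx2 was highest in embryo 1 and lowest in embryo 2.

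Six3, a repressor of WNT genes in the forebrain, was at 114, 184 and 119 CPM against 10.6, 12.1 and 9.42 CPM, and Hesx1, a repressor of forebrain and pituitary, at 100.05, 114 and 78.7 CPM against 9.48, 8.53 and 6.27 CPM. Both were highest in embryo 2. These 4 genes, and the 5 held at 0, define the cells, so their differences are a description and were not tested. In all other cells T averaged 54.5, Trh 54.5, Tcf15 38.7, Meox1 36.4 and Foxa2 15.3 CPM.

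Cells just inside and just outside the Six3 and Hesx1 threshold differed less in Otx2. The 178 cells with exactly 1 UMI of Six3 and Hesx1 together had Otx2 at 136, 146 and 146 CPM in embryos 1 to 3, and the 557 cells that met every other condition but had 0 UMIs of both had it at 110, 111 and 109 CPM. The 557 cells number 188, 131 and 238 in embryos 1, 2 and 3, have a median of 20836 UMIs, and serve as the nearest comparison class, named the Otx2-only cells. A more distant class, the Otx2-negative Sox2 cells, holds 1319 cells (361, 504 and 454) with Sox2 and none of Otx2, Six3, Hesx1 or the 5 excluded genes, and has a median of 15608 UMIs.

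Against all other cells, the anterior neural plate cells had higher levels of 8 of 10 forebrain-wide transcription factors, 7 of 18 general neural genes and 5 of 12 epiblast genes, and lower levels of 8 of 10 caudal genes, 7 of 9 head and paraxial mesoderm genes and 6 of 6 genes of anterior and definitive endoderm. Of 15869 genes tested with edgeR's quasi-likelihood test on UMIs summed per embryo, 2488 (15.7%) passed an adjusted p of 0.05, 957 higher (6.03%) and 1531 lower (9.65%). The number was 298 without embryo 3, 1069 without embryo 2 and 2192 without embryo 1, and 5394 with the embryo as a block. A gene is called higher or lower only where it passed this test. The classes did not overlap in 36.1% of the genes tested, and 30.2% had an unadjusted p under 0.05. The median log2 fold change of all genes tested was -0.02.

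Lhx5, a LIM-homeodomain factor of the early forebrain at chr5:120431699-120441223 (GRCm38, plus strand), was measured at 28.6, 36.2 and 22.5 CPM in the anterior neural plate cells of embryos 1, 2 and 3, against 3.27, 2.91 and 2.82 CPM in all other cells. The classes did not overlap, and the log2 fold change was 3.31 ± 0.17 (SE, adjusted p = 4.28e-05). Irs4, an insulin receptor substrate, stood at 25.3, 37.8 and 20.9 CPM against 3.94, 3.57 and 2.66 CPM, a log2 fold change of 3.07 ± 0.23 (adjusted p = 0.000189). Both genes were highest in embryo 2 and lowest in embryo 3, with every value above those of the other cells.

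Shisa2, which holds WNT and FGF receptors back inside the cell, was at 82.1, 85.2 and 65.3 CPM against 16.7, 12.1 and 12.6 CPM (log2 fold change 2.53 ± 0.14, adjusted p = 4.58e-05). Fzd5, a Frizzled receptor for WNT with a role in the eye field, was at 26.1, 41.9 and 29.0 CPM against 6.49, 6.51 and 5.17 CPM (2.44 ± 0.18, adjusted p = 0.000189). Foxd4, a forkhead factor of the early neural ectoderm, was at 20.9, 28.3 and 20.1 CPM against 4.53, 3.92 and 3.43 CPM (2.58 ± 0.17, adjusted p = 7.67e-05). In all 3 embryos each of these 3 genes was higher in the anterior neural plate cells, with no overlap.

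The other genes among the 10 largest increases were Lmo1, a LIM-only cofactor (48.8, 96.0 and 58.2 CPM against 10.9, 11.9 and 11.7 CPM, log2 fold change 2.58), Fgf5, an FGF of the epiblast (2.78), Dlx6, a homeobox gene of the placodes (2.76), Mcf2, a guanine nucleotide exchange factor (2.75), and Ermn, a cytoskeletal protein (3.27). Ermn was uneven, with 6.43, 20.9 and 3.32 CPM against 1.10, 1.59 and 0.467 CPM, and without embryo 3 its adjusted p was 0.051. Lmo1 and Ermn were both highest in embryo 2.

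**Figure D1:**
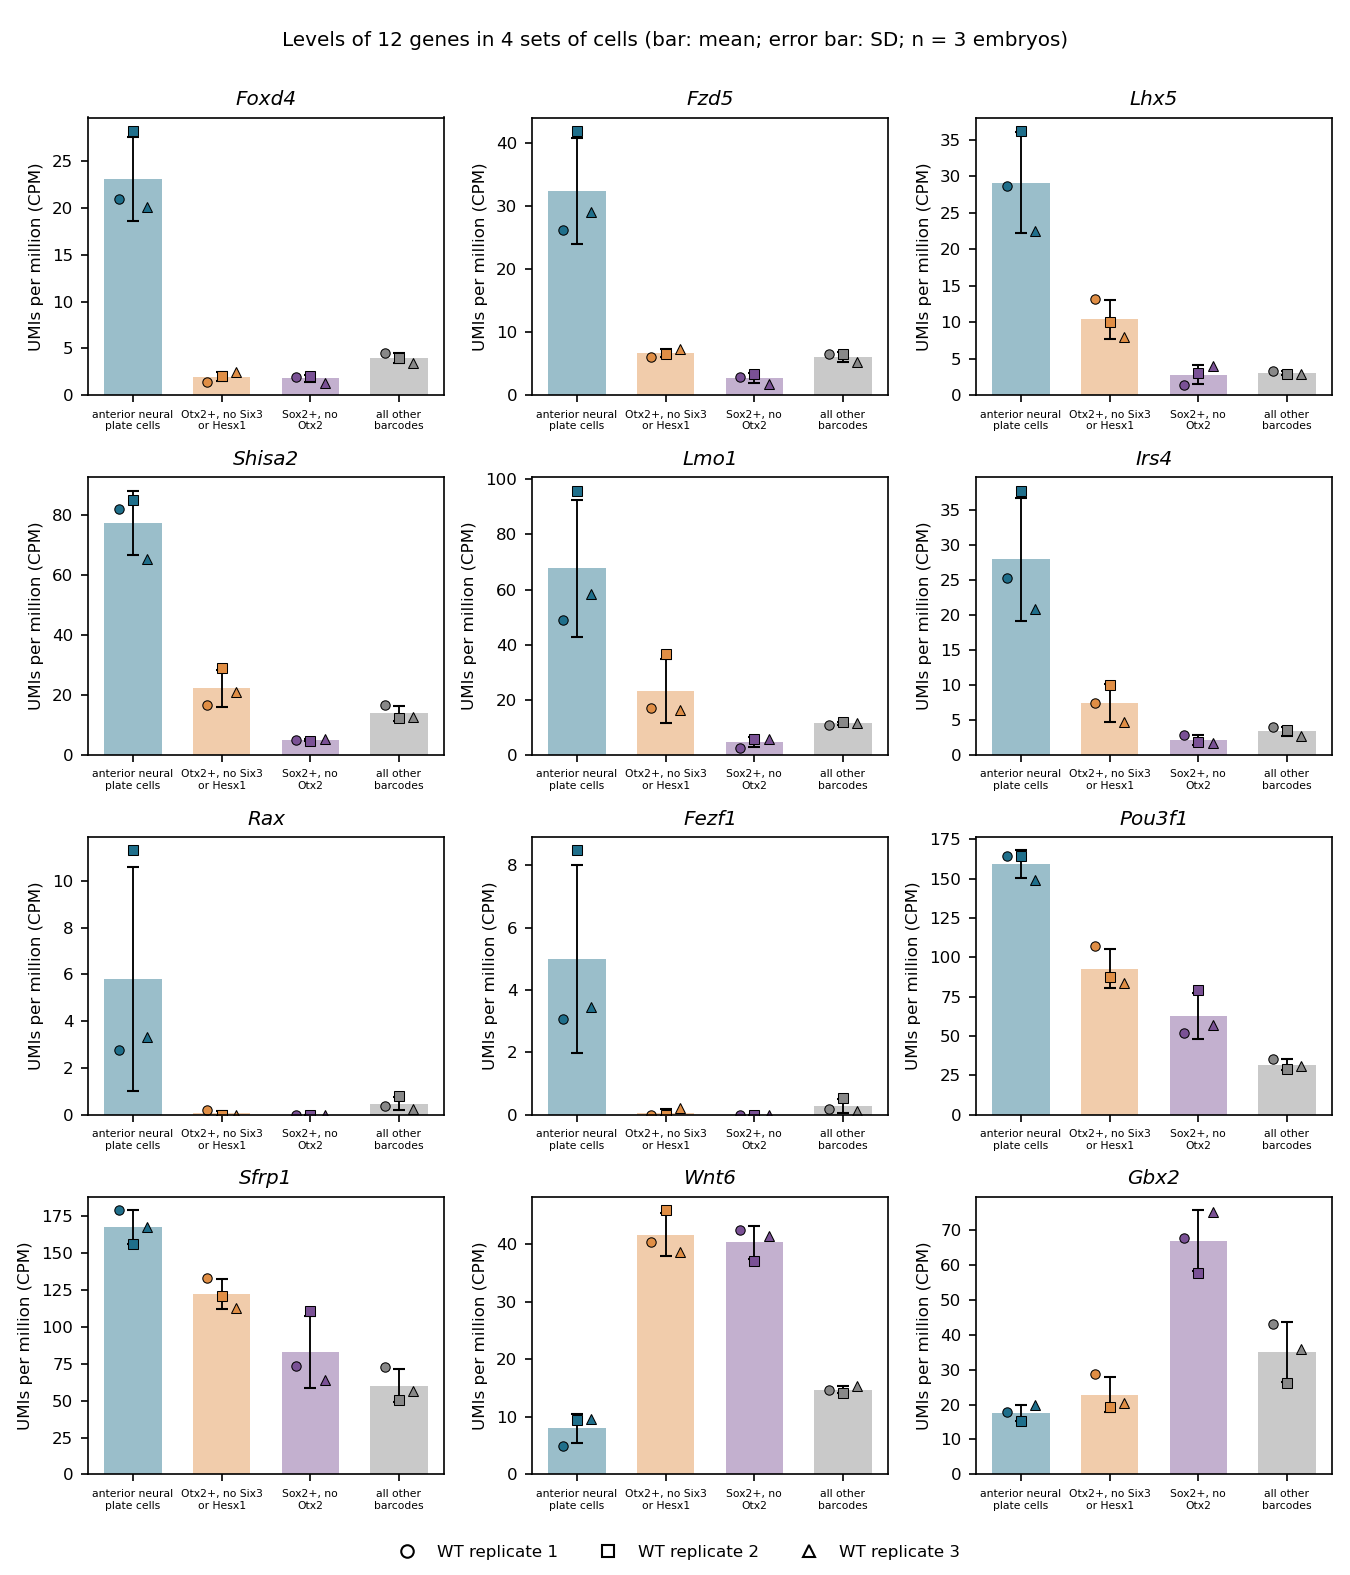
CPM (linear axis from 0) of 12 named genes in the anterior neural plate cells, the Otx2-only cells, the Otx2-negative Sox2 cells and all other cells, with bars at the mean, error bars of 1 SD and 1 point per embryo (n = 3). Foxd4 lies between 20.1 and 28.3 CPM in the anterior neural plate cells and between 1.42 and 2.44 CPM in the Otx2-only cells, while Wnt6 lies between 4.99 and 9.57 CPM against 38.6 to 45.8 CPM.

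Most of the list of transcription factors used across the forebrain was higher. Of its 12 genes 10 were tested, 8 were higher and 0 lower, with a median log2 fold change of 1.42. Besides Lhx5 these were Fezf1 (4.20) and Fezf2 (2.95), zinc-finger repressors of the forebrain, Otx1 (1.71), Zic2 (1.47) and Zic5 (1.38), Irx3 (1.23) and Tcf7l1 (1.15), a repressor of WNT targets. Without embryo 3 the adjusted p was 0.0564 for Fezf1 and 0.0534 for Otx1. The count fell to 4 higher without embryo 3 and was 10 with the embryo as a block. Zic2, a gene mutated in holoprosencephaly, was at 63.3, 45.9 and 55.6 CPM against 25.02, 16.97 and 19.7 CPM, with no overlap.

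Genes of single forebrain regions were few or uneven at this age. Rax, the homeobox gene that starts the eye field, was at 2.78, 11.3 and 3.32 CPM against 0.367, 0.778 and 0.246 CPM (log2 fold change 3.63 ± 0.62, adjusted p = 0.006). Embryo 2 stood above the others, and without embryo 3 the adjusted p was 0.07. Of the 10 eye field genes 6 were tested, 2 were higher (Rax, and Pax6 at 1.89) and 1 was lower (Tbx3, -1.70), while without embryo 3 there were 0 either way. Pax6 lost its call whichever embryo was left out (1.87 to 1.96) and in thinned cells (1.88, adjusted p = 0.142). Lhx2, another eye field gene, had 3.55, 4.24 and 1.60 CPM against 1.99, 2.08 and 2.06 CPM, so that the classes overlapped. Vax1, of the optic stalk, had 0 UMIs in the anterior neural plate cells.

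Of the 11 genes of the anterior neural ridge and telencephalon 9 were tested and 3 were lower. Fgf8, the signal of the ridge, averaged 8.86 ± 2.93 CPM against 34.4 ± 1.49 CPM in all other cells (SD, n = 3, log2 fold change -1.96), and Fgf17 (-2.37) and Foxd1 (-2.32) were lower too. Without the 5 exclusions Fgf8 was at -0.57 and still lower, while Fgf17 (-0.40) and Foxd1 (0.02) no longer passed. Nkx2-1, which marks the ventral forebrain, had 0 UMIs in the 940 cells, which allows up to 3.

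Of the 18 general neural genes, 7 were higher and 1 was lower, with a median log2 fold change of 0.66. Pou3f1, an early neural POU factor, was at 165, 164 and 149 CPM against 35.5, 28.9 and 30.7 CPM (2.37 ± 0.09, adjusted p = 1.75e-05). Sox1, an early Sox gene of the neuroectoderm, was at 15.0, 11.5 and 10.1 CPM against 5.47, 4.10 and 4.04 CPM (1.48 ± 0.19, adjusted p = 0.0017). Neither gene was used by the gate, and both were above the other cells in each embryo. The gate asks for Sox2, which neural progenitors share, so these increases do not bear on the anterior part of the name. Sox1 was seen in 22.3% of the anterior neural plate cells, 25.3% of the Otx2-only cells and 21.3% of the Otx2-negative Sox2 cells. Of 10 neuronal differentiation genes tested, Elavl3 (2.22), Tubb3 (1.61) and Stmn2 (0.98) were higher and the Notch ligands Dll1 (-3.10) and Dll3 (-2.41) were lower, though without the 5 exclusions these were at -0.37 and -0.29 and did not pass.

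Genes of the epiblast, the tissue that precedes the neural plate, were in part higher. Of 12 such genes 5 were higher, namely Fgf5 (2.78), Utf1 (2.26), Dnmt3b (1.46), Nanog (1.42) and L1td1 (0.73), and Nodal was lower (-5.01), with a list median of 0.22. Without the 5 exclusions Nanog (1.02), L1td1 (0.43) and Nodal (-0.65) did not pass. Utf1, a chromatin factor of pluripotent cells, was at 32.5, 30.04 and 38.9 CPM against 7.65, 5.80 and 8.45 CPM. Pou5f1, the central pluripotency factor, was at 165, 88.9 and 147 CPM against 167, 78.7 and 128 CPM, so that the classes overlapped (adjusted p = 0.768), while with the embryo as a block it passed with a log2 fold change of 0.15 (adjusted p = 0.0209). Without embryo 3, 2 of the 5 genes were still counted as higher.

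Genes of caudal identity were lower in the anterior neural plate cells. Of 10 caudal epiblast genes 8 were lower, with a median log2 fold change of -1.86, and of 35 tested Hox genes 23 were lower and 0 higher, with a median of -1.79. Cdx2, a homeobox gene of the tail bud, was at 26.2, 36.4 and 38.4 CPM against 124, 105 and 109 CPM. Aldh1a2, which makes retinoic acid, was at 8.74, 13.6 and 11.96 CPM against 168, 92.8 and 89.4 CPM (-3.34 ± 0.28, adjusted p = 0.000271). Cyp26a1, which degrades retinoic acid, was the 1 member of the caudal list that was higher, at 66.1, 42.2 and 48.1 CPM against 27.4, 25.5 and 25.2 CPM. All 3 embryos fell on the same side for each of these 3 genes.

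These decreases depended in part on the exclusion of T, Trh, Foxa2, Meox1 and Tcf15. With cells admitted whatever their UMIs of these 5 genes, 4 caudal genes and 9 Hox genes were lower. Over all genes tested, 997 of 15981 were then lower, against 1531 of 15869 with the exclusions. The fall in calls was thus not confined to these lists. Cdx2 had a log2 fold change of -0.73, Aldh1a2 of -0.51 (adjusted p = 0.25), Hoxb1 of -0.31 in place of -1.83, and Gbx2 of 0.04 in place of -0.94. Among the largest decreases, the presomitic mesoderm genes Tbx6 (-3.79) and Hes7 (-3.45) and Aldh1a2 no longer passed. Gpx2 (-4.46, then -1.59), Sox17, an endoderm factor (-3.69, then -2.33), Cpn1 (-3.53, then -2.08), Dpp4 (-3.28, then -2.48), Evx1os (-3.15, then -1.01) and Spink1 (-3.12, then -2.20) still passed. Without embryo 3 the Hox count was 8 and the caudal count 7, while over all genes tested 170 of 15888 were lower.

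The signalling lists, apart from the WNT targets, held genes of both directions. Of 13 WNT antagonists 4 were higher and 5 lower: Shisa2 (2.53), Sfrp1 (1.53), Sfrp2 (1.24) and Tle4 (0.38) were higher, and Wif1 (-3.60), Notum (-1.75), Sfrp5 and Frzb (both -1.13) and Dkk1 (-1.10) were lower. Without the 5 exclusions Wif1 (-0.02), Notum (-0.63), Frzb (-0.42) and Dkk1 (0.30) did not pass. Of 10 WNT targets 6 were lower and 0 higher, with a median of -0.97, among them Sp5 (-2.16), Nkd1 (-1.32) and Axin2 (-0.94), which were at -0.58, -0.77 and -0.33 without the exclusions, Axin2 then not passing. Of 20 FGF genes 11 were lower, including the FGF-induced factors Etv4 (-2.31, and -0.59 without the exclusions) and Etv5 (-1.69, then -0.73), and 3 were higher, Fgf5, Fgfr2 (1.25) and Fgfr1 (0.69). Of 18 BMP genes 11 were lower, led by the antagonist Fst (-2.46, then -0.37 and not passing), and Bmpr1b (1.33) was higher. Of 14 Hedgehog genes 1 was higher (Gli2, 0.71) and 1 lower (Shh, -3.69, then 0.25 and not passing). Over all genes tested 6.03% were higher and 9.65% lower, so the Hedgehog counts are near those shares and are not read as a property of the list.

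Of 15 retinoic acid genes 2 were higher, Cyp26a1 (1.05) and the binding protein Crabp2 (0.84), and 8 were lower, with a median of -1.19. Without embryo 3 the lower genes numbered 0 WNT antagonists, 4 WNT targets, 5 FGF genes, 2 BMP genes and 6 retinoic acid genes, and without the 5 exclusions 2, 3, 8, 8 and 3. Fewer genes of these lists were lower under both choices, as over all genes tested. Of these, 170 of 15888 were lower without embryo 3 and 997 of 15981 without the exclusions, against 1531 of 15869 at first. The fall is thus not read as a property of the lists. Shisa2 and Sfrp1 stayed higher under both choices.

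**Figure D2:**
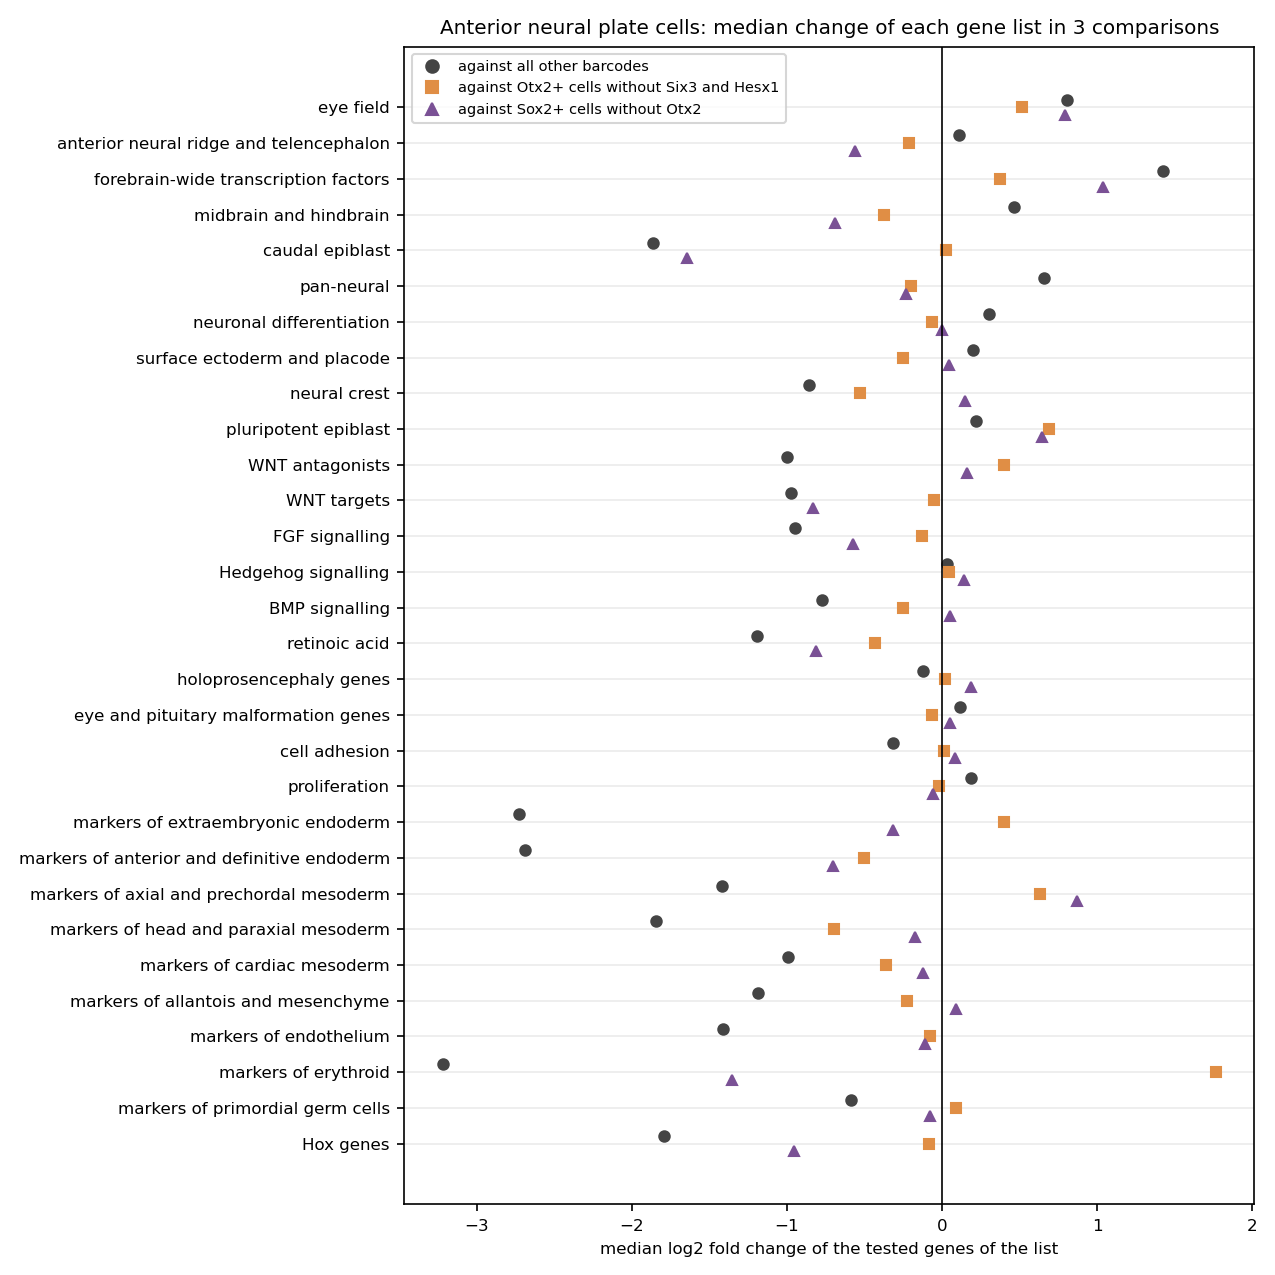
Median log2 fold change of each gene list when the anterior neural plate cells were compared with all other cells, the Otx2-only cells and the Otx2-negative Sox2 cells (1 point per list and comparison, 3 embryos). Forebrain-wide factors lie above 0 in each, at 1.42, 0.38 and 1.04, and the caudal epiblast list lies at -1.86 and -1.65 against all other and Otx2-negative cells and at 0.02 against the Otx2-only cells.

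Markers of other cell types were present, most of them below their level in all other cells. The 9 extraembryonic endoderm genes summed to 448, 765 and 705 CPM in the anterior neural plate cells of embryos 1, 2 and 3, against 2043, 5387 and 3791 CPM in all other cells, with Apoe the one with the most UMIs (229 CPM on average) and none at 0. All 9 were lower in the anterior neural plate cells, and 2 were without embryo 3. The 6 erythroid genes summed to 1.34, 153 and 26.5 CPM against 1.58, 1249 and 171 CPM, led by Hbb-bh1, with none at 0, and 0 of the 6 passed edgeR's test or DESeq2, 1 having an unadjusted p under 0.05 (6 were lower with the embryo as a block). In both lists embryo 1 was lowest and embryo 2 highest in both classes, and the part of these transcripts in the results was not tested.

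Among the other marker lists, the 6 tested genes of anterior and definitive endoderm and 7 of 9 of head and paraxial mesoderm were lower. The endoderm list summed to 187, 235 and 248 CPM in the anterior neural plate cells, led by Krt8, and the paraxial list to 66.7, 74.0 and 78.0 CPM, led by Twist1. Of the 6 axial and prechordal mesoderm genes, 5 were lower, Noto among them with 0 UMIs, while Gsc, a gene of the prechordal plate that lies under the forebrain, was higher (4.51, 6.89 and 5.32 CPM against 2.89, 3.05 and 2.31 CPM, log2 fold change 1.04 ± 0.22, adjusted p = 0.0134). Of 8 cardiac genes 5, of 8 allantois genes 4 and of 6 endothelial genes 3 were lower and 0 higher. Their sums were 107, 171 and 116 CPM for the cardiac list (led by Myl7), 108, 241 and 194 CPM for the allantois list (led by Hand1) and 62.1, 90.1 and 87.6 CPM for the endothelial list (led by Egfl7). Of 4 germ cell genes tested, Ifitm3 was higher (0.63, then 0.31 and not passing). Without the 5 exclusions, which hold out endoderm and mesoderm genes, the lower genes numbered 4 of the extraembryonic endoderm list, 4 of the anterior and definitive endoderm list, 2 of the paraxial list and 0 of the axial list. Over all genes tested 997 of 15981 were then lower.

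The nearest comparison asked which genes go with Six3 and Hesx1 among cells that all carry Sox2 and Otx2. Against the Otx2-only cells the anterior neural plate cells had higher Foxd4, Fzd5, Epha7 and Shisa2 and lower Wnt6 and Wnt4, and 58 of 11190 genes (0.518%) passed, 27 higher (0.241%) and 31 lower (0.277%). The classes did not overlap in 11.3% of the genes, and 6.28% had an unadjusted p under 0.05. The count was 23 without embryo 1, 11 without embryo 2 and 6 without embryo 3, and 450 with the embryo as a block. The comparisons with all other cells, Otx2-only cells and Otx2-negative Sox2 cells share the sums of the 940 cells, so their fold changes are set side by side and not correlated.

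The marker lists of other cell types differed in both directions between these classes. Of those that were higher in the Otx2-only cells of each embryo, the 9 head and paraxial mesoderm genes summed to 106, 91.7 and 122 CPM there in embryos 1, 2 and 3, against 66.7, 74.0 and 78.0 CPM in the anterior neural plate cells, led by Twist1. Of 8 of these genes tested 0 passed edgeR's test or DESeq2, 6 had an unadjusted p under 0.05 and 3 were lower with the embryo as a block. The anterior and definitive endoderm list, led by Krt8, summed to 258, 388 and 401 CPM against 187, 235 and 248 CPM, and of 4 genes tested 0 passed edgeR's test or DESeq2, 1 had an unadjusted p under 0.05 and 1 was lower with the block. The neural crest list, which shares Twist1 with the mesoderm list and was led by Msx1 in the Otx2-only cells, summed to 184, 222 and 221 CPM against 139, 164 and 157 CPM. Of its 7 genes tested 0 passed edgeR's test, 4 had an unadjusted p under 0.05, 1 was lower by DESeq2 and 3 were lower with the block. The embryos of both classes did not overlap in these 3 sums. The cardiac mesoderm list, led by Myl7, summed to 120, 183 and 192 CPM against 107, 171 and 116 CPM, and of 8 genes tested 0 passed edgeR's test, 3 had an unadjusted p under 0.05, 1 was lower by DESeq2 and 2 were lower with the block. The allantois and mesenchyme list, led by Hand1, summed to 135, 259 and 254 CPM against 108, 241 and 194 CPM, and of 7 genes tested 0 passed edgeR's test or DESeq2, 1 had an unadjusted p under 0.05 and 2 were lower with the block. The cardiac and allantois sums were higher in the Otx2-only cells within each embryo, though the classes overlapped across embryos.

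Other marker lists were higher in the anterior neural plate cells of each embryo. The germ cell list, led by Ifitm3, summed to 54.6, 57.1 and 58.5 CPM against 40.6, 47.5 and 42.4 CPM in the Otx2-only cells, with no overlap and with Prdm14 at 0 in the latter, and of 2 genes tested 0 passed edgeR's test, 1 had an unadjusted p under 0.05, 1 was higher by DESeq2 and 1 with the block. The axial and prechordal mesoderm list, led by Gsc in both classes and with Noto at 0 in both, summed to 9.03, 10.1 and 9.70 CPM against 6.23, 9.65 and 5.68 CPM, and of 2 genes tested 0 passed edgeR's test or DESeq2, 1 had an unadjusted p under 0.05 and 1 was higher with the block. The erythroid list, led by Hbb-bh1, summed to 1.34, 153 and 26.5 CPM against 0.89, 60.7 and 8.53 CPM, and of 2 genes tested 0 passed edgeR's test or DESeq2, 0 had an unadjusted p under 0.05 and 2 were higher with the block. The extraembryonic endoderm list was uneven, with 448, 765 and 705 CPM against 260, 555 and 921 CPM, and so was the endothelial list, with 62.1, 90.1 and 87.6 CPM against 74.6, 68.4 and 83.0 CPM. Of 9 and 4 genes tested in these lists 0 passed edgeR's test or DESeq2, 0 had an unadjusted p under 0.05, and 1 and 0 were higher with the block. The part of all these transcripts in the comparison was not tested.

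Foxd4 was at 1.42, 2.01 and 2.44 CPM in the Otx2-only cells of embryos 1, 2 and 3, against 20.9, 28.3 and 20.1 CPM in the anterior neural plate cells, a log2 fold change of 3.57 ± 0.25 (adjusted p = 7.36e-05). Every anterior neural plate value was above every Otx2-only value. UMIs of Foxd4 were seen in 304 of 940 cells (32.3%), in 20 of 557 Otx2-only cells (3.59%) and in 40 of 1319 Otx2-negative Sox2 cells (3.03%). Foxd4 lies at chr19:24899236-24901197 on the minus strand (GRCm38).

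Fzd5 was at 6.05, 6.43 and 7.31 CPM in the Otx2-only cells (log2 fold change 2.28 ± 0.22, adjusted p = 0.000771), and Shisa2 at 16.7, 29.0 and 21.1 CPM (1.87 ± 0.17, adjusted p = 0.000622). Epha7, an ephrin receptor of the neural plate, was at 21.8, 24.2 and 18.1 CPM in the anterior neural plate cells and at 6.58, 4.42 and 5.48 CPM in the Otx2-only cells (1.91 ± 0.18, adjusted p = 0.000789). The classes did not overlap in any of these genes. Foxd4, Shisa2 and Epha7 passed the test under each alternative in which they were tested, and Fzd5 under each except the thinned cells. In thinned cells the log2 fold changes were 1.70 for Foxd4, 1.05 for Shisa2, 1.82 for Epha7 and 1.15 for Fzd5.

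Further increases against the Otx2-only cells were those of Irs4 (1.99, adjusted p = 0.00803), Dlx6 (1.70), Lmo1 (1.65, adjusted p = 0.0468), Lhx5 (1.47, adjusted p = 0.011), Fgf5 (1.40), Utf1 (1.35), Dlx5 (1.14) and Pou3f1 (0.79). Each lost its call without at least 1 of the embryos: Dlx6, Fgf5 and Dlx5 whichever embryo was left out, Irs4 (2.12 and 1.90) and Lmo1 (1.67 and 1.55) without embryos 1 and 3, Lhx5 (1.28 and 1.44) and Pou3f1 (0.73 and 0.76) without embryos 2 and 3, and Utf1 (1.25) without embryo 3. Lmo1 also missed the threshold by DESeq2 (adjusted p = 0.119) and in thinned cells (0.90), as did Pou3f1 in thinned cells (0.53). Lhx5 was at 13.2, 10.1 and 7.92 CPM in the Otx2-only cells, so that it was already above the 2.82 to 3.27 CPM of all other cells there. Pou3f1 was at 107, 87.7 and 83.6 CPM in the Otx2-only cells, also between the anterior neural plate cells and the rest.

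Rax and Fezf1 were almost absent from the comparison classes. Rax had 118 UMIs in the anterior neural plate cells and 1 in the Otx2-only cells, a ratio per total UMIs of 65.2 with a 95% counting interval of 11.5 to 2596, and 0 in the Otx2-negative Sox2 cells. Fezf1 had 106 UMIs against 1, a ratio of 58.5 (10.3 to 2334), and likewise 0 in the Otx2-negative Sox2 cells. With UMIs pooled over the embryos and 3 counts over the group as the floor, Rax was at least 40.2-fold and Fezf1 at least 36.1-fold higher than in the Otx2-negative Sox2 cells. These ratios and the counting intervals leave out the spread between embryos. With 1 UMI each in the Otx2-only cells, both genes met the low-count filter only through the anterior neural plate cells. Their calls therefore add nothing to these UMI counts, which are a description. In edgeR's test against the Otx2-only cells the adjusted p was 0.048 and 0.019 with all embryos, and both calls were lost when any 1 embryo was left out.

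Rax was seen in a minority of cells inside the gate. At least 1 UMI was present in 86 of 940 cells (9.15%), or 7.27%, 14.9% and 6.29% in embryos 1, 2 and 3, against 14 of 2658 extraembryonic endoderm cells outside the gate (0.527%, median 17326 UMIs against 21588). After thinning to 5000 UMIs the shares were 2.66% and 0.0763%. Of the 86 Rax cells, 24 also had Fezf1 (27.9%, against 6.67% of the other anterior neural plate cells), 60 had Lhx5 (69.8% against 38.6%) and 23 had Dlx5 (26.7% against 32.7%). The shares depend on the depth of each cell and were not tested.

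The largest decrease against the Otx2-only cells was that of Wnt6, a WNT ligand of the surface ectoderm. It was at 4.99, 9.37 and 9.57 CPM in the anterior neural plate cells of embryos 1, 2 and 3, against 40.4, 45.8 and 38.6 CPM in the Otx2-only cells (-2.40 ± 0.21, adjusted p = 0.000527), and it passed under each alternative in which it was tested. The whole list of 21 surface ectoderm and placode genes summed to 840, 1147 and 1161 CPM in the Otx2-only cells, led by Krt18, against 752, 889 and 886 CPM in the anterior neural plate cells, led by Epcam. This sum was higher in the Otx2-only cells of each embryo, with the classes overlapping across embryos, and its part in the result was not tested. Wnt4, a second WNT ligand, was at 7.11, 5.83 and 7.98 CPM against 22.2, 16.9 and 19.5 CPM (-1.48 ± 0.17, adjusted p = 0.00343), with no overlap, and without embryo 3 its adjusted p was 0.0668. In all other cells Wnt4 was at 7.13, 6.40 and 7.36 CPM, which overlapped with the anterior neural plate cells.

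Foxb1, a forkhead factor of the caudal diencephalon and hindbrain, was at 28.1, 24.6 and 20.6 CPM against 46.1, 53.5 and 48.3 CPM in the Otx2-only cells (-0.98 ± 0.13, adjusted p = 0.00523). Meis2, a homeobox cofactor that responds to retinoic acid, was at 157, 106 and 148 CPM against 292, 236 and 263 CPM (-0.93 ± 0.13, adjusted p = 0.00905). Neither overlapped between the classes, but Foxb1 lost its call without embryo 2 (-0.93) and 3 (-0.88) and Meis2 without embryo 3 (-0.99) and in thinned cells (-0.73). The remaining decreases among the 10 largest were Anxa2 (-1.06), Phox2a (-1.05), the WNT antagonist Dkk1 (-1.001), Jun (-0.99), Lrrn4 (-0.95) and Fst (-0.86). Anxa2, Phox2a, Dkk1, Lrrn4 and Fst lost their calls whichever embryo was left out, Jun without embryos 2 (-0.89) and 3 (-1.06), Jun (-0.34) and Fst (-0.59) in thinned cells, and Fst without the top doublet scores (-0.77).

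Among the caudal lists no gene passed against the Otx2-only cells. Of 8 caudal epiblast genes, 19 Hox genes, 11 midbrain and hindbrain genes and 9 WNT targets tested, 0 passed either way, with medians of 0.02, -0.08, -0.38 and -0.05. At an unadjusted p under 0.05 there were 1, 2, 6 and 1, with the embryo as a block 2, 2, 3 and 2 passed, each lower, and by DESeq2 0. Forebrain-wide factors gave 2 higher of 10 (Lhx5 and Fezf1, median 0.38), and 8 higher and 1 lower with the block. Of these, Fezf1 met the low-count filter only through the anterior neural plate cells. Of the epiblast genes Utf1, Fgf5 and L1td1 (1.20) were higher of 7 tested, and of the WNT antagonists Shisa2, Tle4 (0.65) and Sfrp1 (0.47) were higher and Dkk1 lower of 7, though Sfrp1 lost its call whichever embryo was left out. Surface ectoderm genes gave Dlx5 and Dlx6 higher and Wnt6 lower of 16 tested, with a median of -0.25, and 4 higher and 4 lower with the block.

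**Figure D3:**
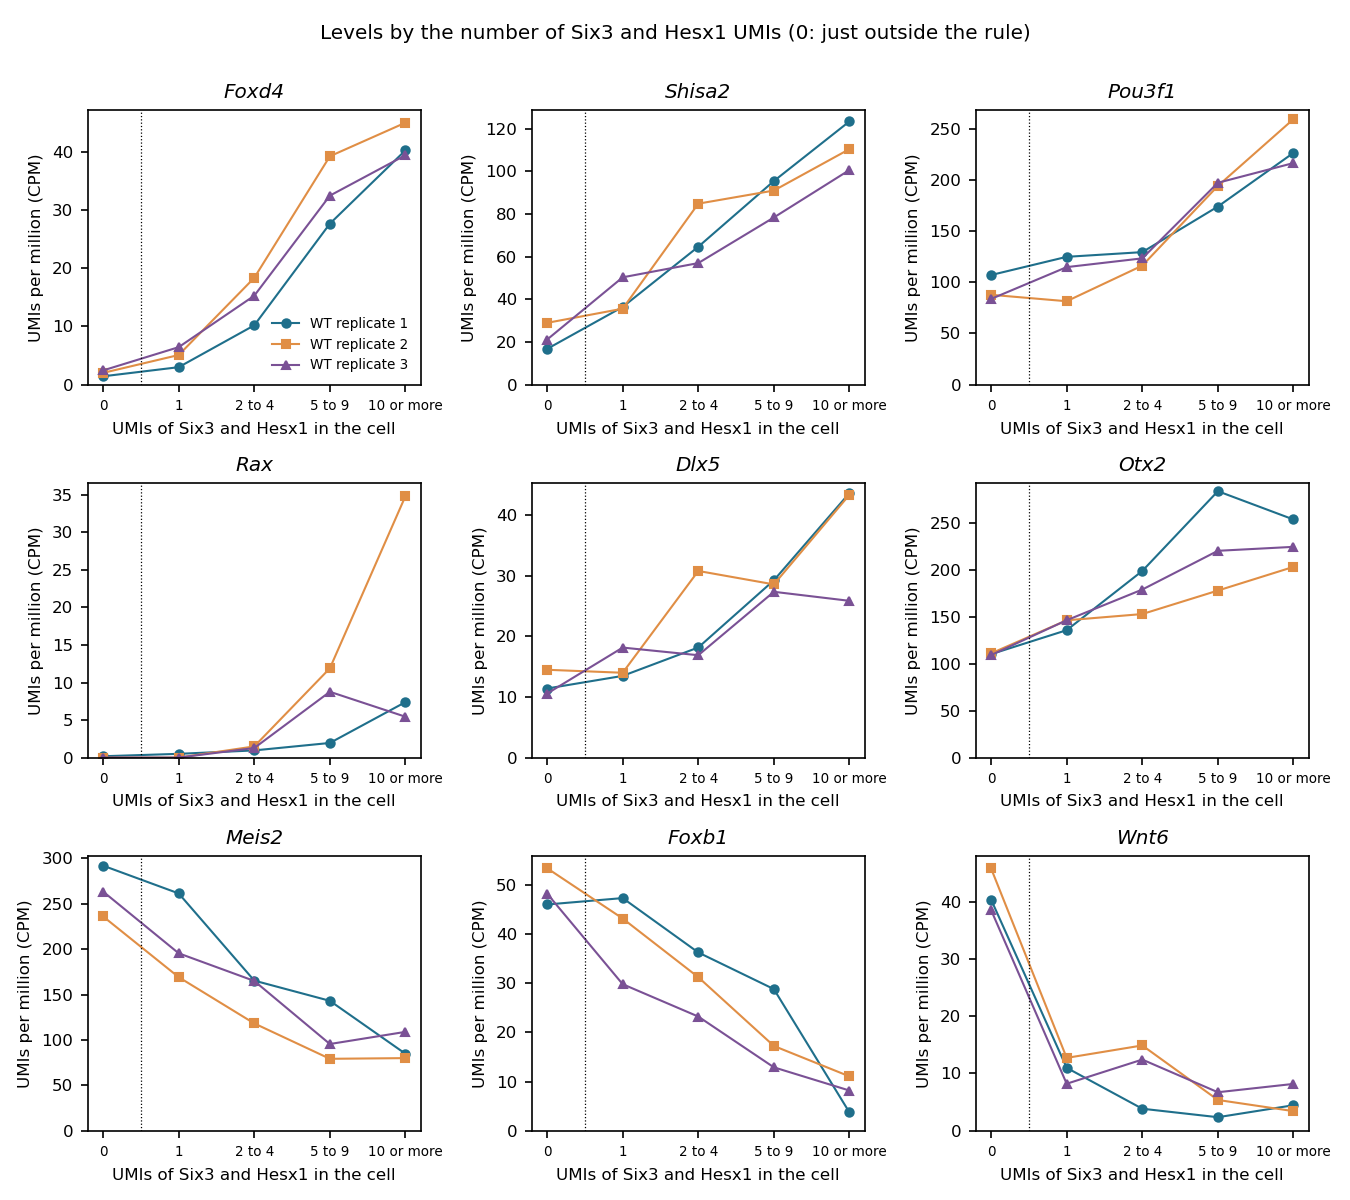
CPM (linear axis from 0) of 9 genes by the number of Six3 and Hesx1 UMIs per cell (0, 1, 2 to 4, 5 to 9, 10 or more), 1 line per embryo, with a dotted line at the edge of the gate. Foxd4 goes from 1.42 to 2.44 CPM at 0 UMIs up to 39.4 to 45.04 CPM at 10 or more, and Meis2 from 236 to 292 CPM down to 79.9 to 109 CPM.

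Within the gate, several of these genes moved in steps with the amount of Six3 and Hesx1. The cells were split into 178 with 1 UMI of the pair, 340 with 2 to 4, 259 with 5 to 9 and 163 with 10 or more, beside the 557 Otx2-only cells with 0. Foxd4 stood at 1.42, 2.99, 10.2, 27.7 and 40.3 CPM over these bins in embryo 1, at 2.01, 5.09, 18.4, 39.3 and 45.04 CPM in embryo 2, and at 2.44, 6.44, 15.3, 32.5 and 39.4 CPM in embryo 3. The order was the same in the 3 embryos. The bins were formed from the gate's own genes and the split was added after the data were seen, so these values are a description.

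Shisa2 averaged 22.3, 40.8, 68.8, 88.3 and 111.5 CPM over the bins and Pou3f1 92.8, 106.9, 122.9, 188 and 234 CPM. Shisa2 went up at each step in the 3 embryos, whereas Pou3f1 in embryo 2 was at 87.7 CPM in the first bin and 81.4 CPM in the second. Lhx5 averaged 10.4 CPM in the first bin and 42.5 CPM in the last, but it went from 13.2 to 11.5 CPM between the first pair of bins in embryo 1 and from 39.2 to 31.3 CPM between the last pair in embryo 3. Foxb1 averaged 49.3 CPM at 0 UMIs and then 40.2, 30.3, 19.7 and 7.64 CPM, and Meis2 264 CPM and then 209, 149, 106 and 91.1 CPM, though Meis2 in embryos 2 and 3 and Foxb1 in embryo 1 each went up once between neighbouring bins. Wnt6 averaged 41.6 CPM at 0 UMIs and between 4.80 and 10.6 CPM in the bins inside the gate. Rax reached 15.9 ± 16.4 CPM in the last bin (SD, n = 3), a spread set by embryo 2 with 34.8 CPM. Median UMIs per cell were 26020.5 in the first bin and 30636 in the last in embryo 1, 16624 and 20412 in embryo 2, and 17129 and 20675 in embryo 3, so cells of the last bin were also the deepest.

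Against the Otx2-negative Sox2 cells, the anterior neural plate cells had higher Shisa2, Lmo1, Foxd4 and Cyp26a1 and lower Cdx1 and Gbx2. Of 11680 genes 486 (4.16%) passed, 235 higher (2.01%) and 251 lower (2.15%), with 227, 207 and 180 without embryos 1, 2 and 3 and 1475 with the embryo as a block. The classes did not overlap in 17.7% of the genes. Shisa2 was at 4.83, 4.65 and 5.197 CPM in the Otx2-negative Sox2 cells of embryos 1, 2 and 3, against 82.1, 85.2 and 65.3 CPM (log2 fold change 3.99 ± 0.14, adjusted p = 2.63e-07). Foxd4 was at 1.93, 2.05 and 1.33 CPM (3.69 ± 0.22, adjusted p = 1.95e-05), Fzd5 at 2.90, 3.28 and 1.73 CPM (3.60) and Lhx5 at 1.39, 3.01 and 3.998 CPM (3.41). No embryo of either class overlapped for these genes.

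Ermn (5.00), Lmo1 (3.89), Irs4 (3.67), Fgf5 (3.18) and Epha7 (2.21) completed the largest increases together with Cyp26a1, which was at 66.1, 42.2 and 48.1 CPM against 5.79, 12.7 and 8.00 CPM (2.60 ± 0.25, adjusted p = 0.000307). Ermn was again carried by embryo 2, with 20.9 CPM, and without embryo 1 its adjusted p was 0.0727. Of the forebrain-wide factors 8 of 10 tested were higher and 0 lower (median 1.04), among them Otx1 (2.95), Fezf2 (2.51), Tcf7l1 (1.25) and Tcf7l2 (0.82), with 4, 6 and 4 when embryos 1, 2 and 3 were left out. Otx1 lost its call whichever embryo was left out (2.21 to 4.23). Fezf1, with 0 UMIs in the Otx2-negative Sox2 cells, is among the 8 and met the low-count filter only through the anterior neural plate cells. Of the midbrain and hindbrain genes, the midbrain genes Dmbx1 (3.01) and Pax2 (1.52) were higher, and Gbx2, Hoxb1 and Irx2 were among those lower, of 10 tested. Pax2 lost its call without embryo 3 (1.69) and in thinned cells (0.36).

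Cdx1, a homeobox gene of the caudal embryo, was at 36.4, 55.5 and 46.9 CPM against 207, 216 and 173 CPM in the Otx2-negative Sox2 cells (-2.11 ± 0.14, adjusted p = 4.11e-05). Gbx2, which sets the hindbrain side of the midbrain-hindbrain border, was at 17.96, 15.2 and 19.8 CPM against 67.7, 57.7 and 75.2 CPM (-1.90 ± 0.13, adjusted p = 4.11e-05). Both were lower in each embryo without overlap, in cells that also lack UMIs of the 5 excluded genes.

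Markers of other cell types moved both ways in this comparison. Gsc was higher in the anterior neural plate cells (4.51, 6.89 and 5.32 CPM against 2.04, 0.957 and 1.33 CPM, log2 fold change 1.89 ± 0.31, adjusted p = 0.00608), and the axial and prechordal list summed to 9.03, 10.1 and 9.70 CPM against 4.93, 3.97 and 5.73 CPM, with no overlap. Of 8 head and paraxial mesoderm genes tested 2 were higher, Foxc1 (1.21) among them, and 0 lower. Of 8 cardiac genes Isl1 (0.76) was higher and 0 lower. Of 4 genes of anterior and definitive endoderm Apela (-1.36) was lower and 0 higher. The sums of these 3 lists overlapped between the classes, at 63.7, 70.01 and 86.2 CPM, 126.9, 115.8 and 134.7 CPM, and 236, 228 and 321 CPM in the Otx2-negative Sox2 cells. Of the germ cell list Ifitm3 (0.54) was higher and Dppa3 (-2.31) lower of 3 tested, and of the neural crest list Sox9 (1.60) was higher and Msx1 (-1.20) lower of 7. Without embryos 1, 2 and 3, the higher genes numbered 1, 0 and 0 of the axial list and 0, 0 and 0 of the cardiac list. The extraembryonic endoderm list summed to 377, 1049 and 878 CPM in the Otx2-negative Sox2 cells, and of its 9 genes 0 passed edgeR's test or DESeq2, 0 had an unadjusted p under 0.05 and 1 was lower with the block, while in thinned cells 5 of 8 were lower. Over all genes tested in thinned cells, 146 of 8627 were lower. The erythroid list summed to 0.536, 389 and 43.2 CPM, and the part of these transcripts in the comparison was not tested.

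Olig3 (-2.39), Wnt6 (-2.37), Wnt8a (-2.30), Rarb, a retinoic acid receptor (-2.13), Zfp703 (-1.98), Hes3 (-1.97), Klf5 (-1.96) and Fgfbp3 (-1.95) were the other large decreases. Olig3 did not pass without embryo 2 (-2.44, adjusted p = 0.0715). Of 8 caudal epiblast genes 6 were lower and 1, Cyp26a1, was higher (median -1.65), of 9 WNT targets 7 were lower and 1, Lgr5, was higher (-0.83), of 12 retinoic acid genes 8 were lower and 1 higher (-0.81), and of 22 Hox genes 5 were lower and 0 higher (-0.95). Of 15 general neural genes 5 were lower, among them Sox3 (-0.98), and 1, Pou3f1 (1.36), was higher. Sox1 was at 14.5, 20.9 and 11.7 CPM in the Otx2-negative Sox2 cells, which overlapped with the anterior neural plate cells.

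The 940 cells were not uniform in the genes that admitted them. Six3 without Hesx1 was seen in 172 cells (18.3%), 50, 40 and 82 in embryos 1, 2 and 3, Hesx1 without Six3 in 192 (20.4%), 71, 47 and 74, and both in 576 (61.3%), 209, 189 and 178. Absence of 1 of the genes in a cell can reflect depth, and the median UMIs were 20791.5 in the Six3-only and 21877.5 in the Hesx1-only cells. Of 8691 genes tested between them, 18 (0.207%) passed, 13 higher in the Six3-only cells (0.15%) and 5 higher in the Hesx1-only cells (0.0575%). The count was 8, 5 and 7 without embryos 1, 2 and 3, 92 with the embryo as a block and 12 by DESeq2. The sets did not overlap in 9.76% of the genes.

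The Six3-only cells carried genes of the surface ectoderm and placodes. Gata3, a zinc-finger factor of the non-neural ectoderm at chr2:9857078-9890034 (GRCm38, minus strand), was at 19.7, 19.7 and 15.95 CPM in the Six3-only cells of embryos 1, 2 and 3, against 3.43, 1.13 and 2.33 CPM in the Hesx1-only cells (2.76 ± 0.37, adjusted p = 0.00142). Dlx5, a homeobox gene of the placodes, was at 36.9, 52.9 and 37.8 CPM against 6.43, 10.2 and 8.14 CPM (2.39 ± 0.25, adjusted p = 8.71e-05). Neither gene overlapped between the sets in any embryo, though without embryo 3 the adjusted p of Gata3 was 0.0827.

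Cldn7, a claudin of epithelia (1.90 ± 0.22), Fermt1 (2.49 ± 0.47), Tfap2a, a factor of surface ectoderm and neural crest (1.62 ± 0.24), Epcam (0.74 ± 0.10), Utf1 (1.27) and Ifitm3 (0.98) were higher in the Six3-only cells as well. Fermt1 lost its call without embryo 2 (2.37) and 3 (2.99) and by DESeq2 (2.57), and Cldn7 in thinned cells (0.91). Of 21 surface ectoderm and placode genes 11 were tested, 4 were higher (Gata3, Dlx5, Tfap2a and Epcam) and 0 lower, with a median of 1.63. With the embryo as a block 10 were higher, and without embryos 1, 2 and 3 the number was 4, 2 and 2. Summed over the list, the Six3-only cells had 956, 1223 and 1133 CPM and the Hesx1-only cells 493, 534 and 735 CPM, led by Krt18 and Epcam. Grhl3 and Trp63, factors that define the surface ectoderm, had 0 UMIs in the Six3-only cells. The anterior and definitive endoderm list, which holds Krt8, summed to 225, 342 and 288 CPM in the Six3-only and 132, 122 and 266 CPM in the Hesx1-only cells, and the germ cell list, which holds Ifitm3, to 78.2, 82.4 and 78.6 CPM against 36.5, 40.7 and 37.8 CPM. In embryo 2 the Six3-only cells also stood out in extraembryonic endoderm genes (1216 CPM against 194 and 323 CPM in embryos 1 and 3) and cardiac genes (363 CPM against 100.9 and 95.7 CPM). The part of these transcripts in the comparison was not tested.

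**Figure D4:**
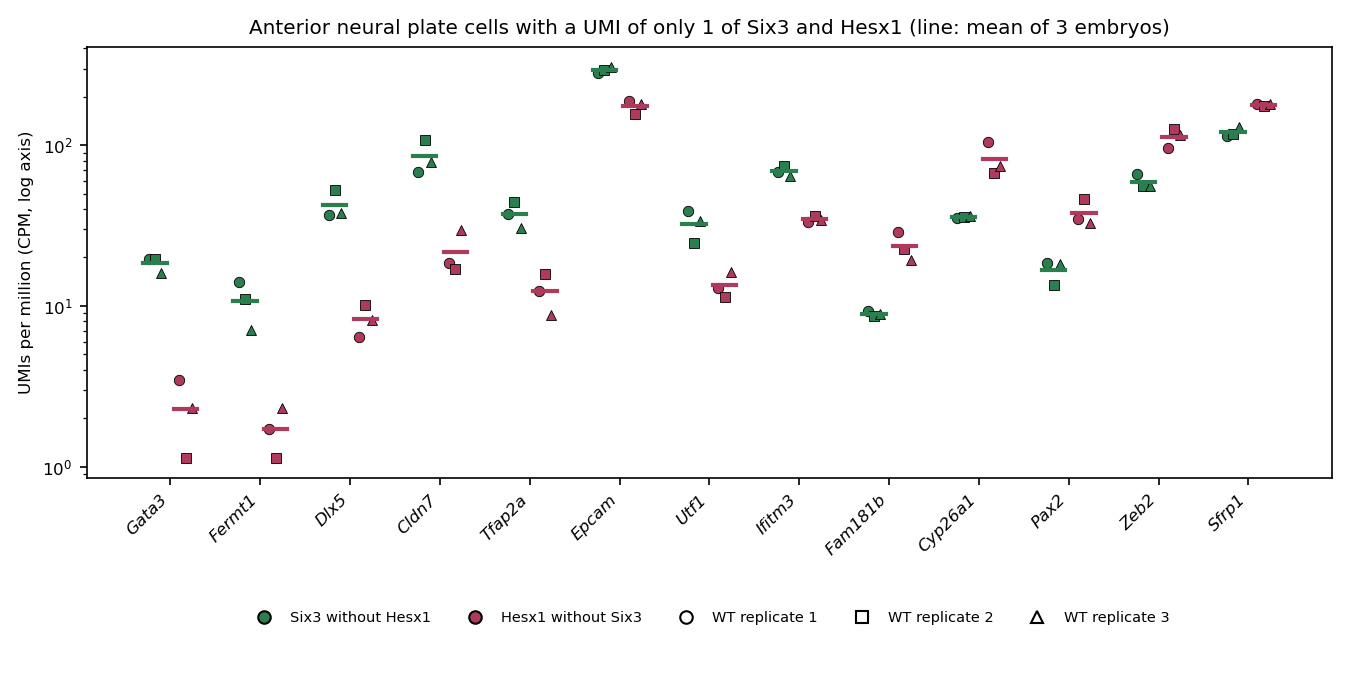
CPM (log axis) in the Six3-only and the Hesx1-only cells of each embryo (1 point per embryo) for 13 of the 18 genes that passed the test between them, with a horizontal line at the mean. Gata3 and Dlx5 lie higher in the Six3-only cells of every embryo and Cyp26a1 and Pax2 in the Hesx1-only cells, Dlx5 at 36.9 to 52.9 against 6.43 to 10.2 CPM.

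In the Hesx1-only cells 5 genes were higher. Cyp26a1 was at 105, 66.7 and 74.4 CPM against 35.1, 35.7 and 36.0 CPM in the Six3-only cells (-1.25 ± 0.18, Six3-only against Hesx1-only, adjusted p = 0.00316). Pax2, a paired-box gene of the midbrain and the otic and optic regions, was at 34.7, 46.4 and 32.6 CPM against 18.5, 13.5 and 18.3 CPM (-1.09 ± 0.21, adjusted p = 0.0422). Fam181b (-1.42 ± 0.26), the zinc-finger gene Zeb2 (-0.91 ± 0.14) and Sfrp1 (-0.57 ± 0.11) completed the set, and each of these lost its call without at least 2 of the embryos in turn. The sets did not overlap in Cyp26a1 or Pax2, but Cyp26a1 lost its call without embryo 1 (-0.99) and 3 (-1.35) and in thinned cells (-0.45), and Pax2 whichever embryo was left out (-0.88 to -1.24), by DESeq2 and without the top doublet scores (-1.01).

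Foxd4 and Shisa2, which were higher in the anterior neural plate cells than in the Otx2-only cells, did not pass between these 2 sets, whereas Dlx5, Utf1 and Sfrp1 passed in both comparisons. Foxd4 was at 3.69, 15.998 and 11.8 CPM in the Six3-only and 7.29, 7.92 and 9.31 CPM in the Hesx1-only cells, and Shisa2 at 40.6, 80.0 and 48.4 CPM against 61.3, 53.2 and 53.5 CPM. Both overlapped. In the 576 cells with both genes, Foxd4 was at 30.2, 35.3 and 27.97 CPM and Shisa2 at 100.02, 93.4 and 77.1 CPM, above both single-gene sets in each embryo. Gata3 in the cells with both was at 9.91, 9.34 and 6.32 CPM, between the Six3-only and the Hesx1-only cells, and Wnt6 at 3.87, 10.3 and 10.2 CPM.

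Dlx5 and Gata3 were seen together in part of the cells. Dlx5 was present in 302 of 940 cells, and Gata3 in 91 of these (30.1%) against 7.99% of the other anterior neural plate cells. Dlx5 was seen in 47.1% of the Six3-only cells, 13.5% of the Hesx1-only cells and 1.88% of extraembryonic endoderm cells, and Gata3 in 24.4%, 4.69% and 3.91%. The Gata3 share of the Hesx1-only cells was thus near that of the extraembryonic endoderm cells. In the Otx2-only cells, with no UMI of Six3 or Hesx1, the shares were 18.7% for Dlx5 and 17.4% for Gata3. In the 940 cells they were 32.1% and 15.1%, so Gata3 was not confined to cells with Six3. Against all other cells, 5 of 20 surface ectoderm genes were higher, Dlx6, Dlx5 (2.26), Foxi2 (2.22), Tfap2a (1.97) and Epcam (0.79), and 5 were lower, Krt19 (-2.11), Gata2 (-1.51), Wnt6 (-0.88), Krt8 (-0.80) and Krt18 (-0.71), with a list median of 0.20. Wnt6 lost its call without embryo 2 (-1.02, adjusted p = 0.0845), without embryo 3 (-0.99, adjusted p = 0.149) and in thinned cells (-1.94, adjusted p = 0.0862). Without the 5 exclusions Krt18 did not pass (-0.63, adjusted p = 0.0543), while Krt19 (-1.01), Gata2 (-1.51), Wnt6 (-1.05) and Krt8 (-0.78) were still lower. The part of surface ectoderm cells in each comparison was not tested.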

How the data were processed

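Whole embryos had been dissociated and 1 library per embryo made with the 10x Genomics 3′ kit. Per the labels the authors aligned the reads with Cell Ranger 3.1.0 to mm10 with EGFP added, and they deposited UMI counts per feature and barcode, not normalized. Replicates were not pooled. Barcodes with 1500 to 8500 genes (at most 7500 in embryo 2) and at most 10% mitochondrial UMIs were kept. The further clusters that the study removed were kept here, since no file assigns them. Barcodes with the top 6% of Scrublet doublet scores in each library (scanpy 1.11.5) were kept and left out in an alternative.

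Counts were summed per embryo and class and tested with edgeR 4.0.16 (quasi-likelihood test, TMM, filterByExpr, Benjamini-Hochberg adjustment over all genes tested, threshold 0.05) in R 4.3.3, with no covariate. Alternatives were DESeq2 1.42.0, library size scaling, no filter, a block for the embryo, omission of each embryo, thinning to 5000 UMIs, at least 2 UMIs of Six3 and Hesx1, no exclusions, no gene maximum, and doublet-like or low-mitochondrial barcodes (under 0.5%) left out. An exact binomial interval (95%) was used for shares, and a floor of 3 counts over the group for folds against 0. The libraries held 207961733, 149341900 and 167503888 UMIs in embryos 1, 2 and 3, of which the anterior neural plate cells gave 10414806, 5658814 and 7523308.

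Classes of the same number come from the same embryo. Deviations from the class means correlated within embryos 1, 2 and 3 at 0.34, 0.24 and 0.22 against all other cells, at 0.51, 0.34 and 0.33 against the Otx2-only cells, at 0.56, 0.40 and 0.37 against the Otx2-negative Sox2 cells, and at 0.35, 0.13 and 0.18 between the Six3-only and Hesx1-only cells.

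The cells, gene lists and comparisons were chosen with earlier results of these data known, so lists are described by counts and medians and are not independent evidence. The text names the 9 genes of the gate, the 10 largest changes each way in the first 3 comparisons and 5 each way in the last (adjusted p under 0.05, the same direction in every embryo, at least 10 CPM in the higher class, unnamed gene models left out), up to 4 called and 2 uncalled genes of each list, fixed anchor genes, and the leading gene of each marker list. Other list members that passed are named where a list's count is given, chosen after their values were seen. Genes of the gate were left out of all counts. On simulated counts for the comparison with all other cells (15878 genes), 62% of genes changed 2-fold and 94% of genes changed 4-fold were recovered. At 1.5-fold it was 28% and at 8-fold 76%. For the Six3-only against Hesx1-only comparison (8695 genes) the 2-fold and 4-fold shares were 50% and 100%. Only genes averaging at least 10 counts were changed, the 2-fold and 8-fold ones downward. The simulated classes were not linked by embryo, unlike the real sums, so these shares do not cover low-count genes or that link. False calls made up 6.47% of the calls in the first and 10.1% in the second of these simulations, and 8.09% in that for the Otx2-only cells (11194 genes), all above the 5% the threshold aims at.

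Coordinates were taken from GENCODE (release 21 for mouse, GRCm38), in which 30934 of 31054 features were found by identifier, and promoters from RefSeq. A few genes that the rule names are not reported here.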

Additional observations from a re-analysis of the deposited data

Results flagged for a closer look

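Transcripts of EGFP, a reporter sequence added to the genome for alignment, appeared in these wild-type embryos, outside any comparison made above. Embryo 1 had 31 UMIs in 21 barcodes, with at most 3 in 1 barcode, and embryo 3 had 32 UMIs in 22 barcodes, with at most 6 in 1 barcode. Embryo 2 had 0. Both counts are above the 3 that a count of 0 allows. The anterior neural plate cells held 0 EGFP UMIs in each of the 3 embryos.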

How the results depend on the processing

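The number of genes that passed changed most. Against all other cells it was 5394 with the embryo as a block, 1147 in thinned cells and 298 to 2192 with an embryo left out. Against the Otx2-only cells it was 216 with no filter, 450 with the block, 11 in thinned cells, 105 with at least 2 UMIs of Six3 and Hesx1, and 6 to 23 with an embryo left out. Against the Otx2-negative Sox2 cells it was 1475 with the block, 265 in thinned cells and 180 to 227 with an embryo left out. Between the Six3-only and Hesx1-only cells it was 66 with no filter, 92 with the block, 2 in thinned cells (0 of them among the 18) and 5 to 8 with an embryo left out. The share of anterior neural plate cells was 1.85% in thinned cells and 11.1% without the 5 exclusions. Fold changes reversed for En1 in thinned cells (-7.69) and Gbx2 without the 5 exclusions (0.043), both against all other cells, and between the Six3-only and Hesx1-only cells for Zic2 without embryo 2 (0.0051, the range over omitted embryos being -0.15 to 0.0051) and Gbx2 without embryo 3 (-0.081, range -0.081 to 0.57). The block added calls and is printed beside each comparison. Of 506 fold changes of named genes against all other cells under alternatives, 482 kept direction and call, of 427 against the Otx2-only cells 364, of 425 against the Otx2-negative Sox2 cells 400, and of 204 between the single-gene sets 173. The causes were not tested. Depth limits the gate itself, since absence of a UMI in a shallow cell does not show absence of the transcript.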

Other observations

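Genes whose loss causes holoprosencephaly, a failure of the forebrain to divide, were spread over both directions against all other cells. Of 15 tested 4 were higher, Zic2 (1.47), Gli2 (0.71), Fgfr1 (0.69) and Tgif1 (0.56), and 4 were lower, Nodal (-5.01), Shh (-3.69), Dll1 (-3.10) and Fgf8 (-1.96). With cells admitted whatever their UMIs of the 5 excluded genes, Fgf8 was at -0.57 and still lower, and Nodal (-0.65), Shh (0.25), Dll1 (-0.37) and Tgif1 (0.51) did not pass. Against the Otx2-only cells 0 of 11 passed edgeR's test or DESeq2, 1 having an unadjusted p under 0.05 (3 were higher with the embryo as a block). Of 8 tested genes of eye and pituitary malformations, Rax and Pax6 were higher and Bmp4 (-1.02), Bmp7 (-0.76) and Stra6 (-1.29) were lower, Stra6 not passing without the exclusions (-0.15).

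Of 14 adhesion genes, Epcam (0.79) and Itga6 (0.70) were higher against all other cells and the protocadherins Pcdh8 (-3.38) and Pcdh19 (-2.68), Fn1 (-1.52) and Vim (-0.66) were lower, while Cdh2 was at 30.2, 40.3 and 19.8 CPM against 45.7, 36.6 and 33.5 CPM and the classes overlapped. Without the exclusions Pcdh8 (-0.23) and Pcdh19 (-0.21) did not pass and Fn1 was at -0.73. Of 8 neural crest genes tested, Sox9 was higher (1.52) and Twist1 (-1.84), Msx1 (-1.26), Snai1 (-1.12) and Msx2 (-0.79) were lower. Without the exclusions Snai1 did not pass (-0.56, adjusted p = 0.0693), and Twist1 (-0.76), Msx1 (-0.83) and Msx2 (-0.81) were still lower. Of 18 proliferation genes 2 were higher, Ccne1 (0.38) and Mcm3 (0.32), and 3 were lower, Cdkn1a (-1.24), Cdkn1c (-1.19) and the cyclin Ccnd2 (-0.65). Over all genes tested against all other cells 6.03% were higher and 9.65% lower, so these counts are not read as a property of the list. Of the 5 proliferation genes only Cdkn1c (-0.96) passed without the exclusions. Of 17 midbrain and hindbrain genes Dmbx1 (2.05), Pax5 (1.95), Pax2 (1.90) and Irx1 (0.47) were higher, and 3 were lower, Hoxb1 (-1.83) and Gbx2 (-0.94) among them. Without the exclusions Irx1 (0.31, adjusted p = 0.117), Hoxb1 (-0.31) and Gbx2 (0.04) did not pass, while Dmbx1 (2.14), Pax5 (1.62) and Pax2 (1.74) still did. Gbx2 also lost its call without embryo 3 (-0.99, adjusted p = 0.106). Pax2, a gene of the midbrain, was at 24.1, 21.9 and 19.0 CPM against 6.25, 5.61 and 6.05 CPM, with no overlap. In the Otx2-only cells Pax2 was at 30.1, 35.8 and 21.5 CPM, above the anterior neural plate cells of each embryo. En1, of the midbrain and hindbrain border, was at 0.864, 4.95 and 1.20 CPM against 0.481, 2.11 and 0.845 CPM. It was higher in each embryo and passed with the embryo as a block (1.00, adjusted p = 0.00786), but not without the block. Against the Otx2-only cells En1 was called lower with the block (-1.92, adjusted p = 4.36e-05) and with no low-count filter (-1.88, adjusted p = 3.43e-07). It did not pass edgeR's test there without these choices. With embryo 3 left out, the genes that passed numbered 4 of the holoprosencephaly list (1 higher and 3 lower), 0 of the eye and pituitary list, 4 of the adhesion list (1 and 3), 2 of the neural crest list (1 and 1), 0 of the proliferation list and 3 of the midbrain and hindbrain list (1 and 2). Over all genes tested 298 of 15888 then passed.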
